A study of Mus musculus with 5 samples.

Results

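The genes described here are the ligands and receptors of the axon guidance families: semaphorins of classes 3 to 7, plexins, ephrins, Eph receptors, Slits, Robos, netrins 1 and 4 and Unc5 receptors. They were chosen by symbol alone, from array probe sets annotated with a single gene, and came to 66 genes on 143 probe sets, out of 18193 named genes on 45101 probe sets. The same letters also took in 3 genes that are not guidance ligands or receptors: Plxna4os1, a noncoding transcript, Unc5cl, which encodes a signalling protein related to the intracellular part of Unc5, and Unc50, which is unrelated to Unc5. Total RNA was measured on 1 Affymetrix expression array for each of 5 clones of mouse cardiac progenitors (1D, 11B, 20B, 30 and 42). Left ventricles were the source of the cells, from mice aged 5 to 6 months, with the strain given as C67BL/6. The cells were enriched with an antibody to Sca-1 and are labelled c-kit+. Each clone was picked with cloning rings and then subcloned, so a group is 1 clonal line, and the labels name no treatment and no other difference between the clones. The question set by the title of the series is how heterogeneous such clones are, above all in the chemokine SDF-1 (gene Cxcl12).

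Guidance cues were first known for steering growing axons, and the same proteins pattern blood vessels and the heart. Secreted class 3 semaphorins act through complexes of neuropilins and plexins, while most membrane-bound semaphorins bind plexins directly. Ephrins stay on the cell surface and signal to Eph receptor kinases on neighbouring cells, with ephrin-A proteins held by a lipid anchor and ephrin-B proteins spanning the membrane. Slits are secreted ligands of Robo receptors, and netrins bind Dcc, neogenin and the Unc5 receptors. In the heart, Sema3c takes part in division of the outflow tract, and Efnb2 and Ephb4 mark arterial and venous endothelium.

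The deposited values are ratios, scaled for each probe set to the middle array or to a floor, so they carry differences between clones and no expression level. Levels of different genes were therefore not compared. A probe set was called measured if its median was exactly 1 or a clone lay above 1, and if its lowest and highest clone were more than 0.05 log2 units apart. A gene's value is the mean log2 ratio of its measured probe sets, its range is the distance between its highest and lowest clone, and 1 log2 unit is 2-fold. Each clone had 1 array, so there was no test, and the differences have no replicate check. The disagreement between probe sets of one gene gave a spread of 0.30 log2 units for a single probe set, which covers neither culture nor RNA preparation, and the 18 hybridization controls had a standard deviation of 0.07. The number of arrays limits the precision. In the RNA controls clone 11B had the lowest values. Its 5' Actb value divided by its 3' value was 0.597, against 0.743 in clone 30 and 1.00 to 1.08 in the others. For Gapdh the same quotient was 0.924 in clone 11B, 1.00 in clone 30 and up to 1.16 in the others. These are quotients of scaled ratios, so they compare clones and are not ratios of 5' to 3' signal. The 18S controls of clone 11B were at 0.411 to 0.555. The part of RNA quality in the results was not tested. Of the defining markers Kit was measured on 1 probe set with a range of 0.26, and Pou5f1, the gene of oct-4, was not measured, at ratios of 0.572 to 0.580. Sca-1 itself could not be checked, since none of the probe sets named Ly6a as its single gene.

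Of the 66 members, 41 had a measured probe set (62.1%), against 51.9% of all named genes. On a probe set with a median of 1 it was 37 of 66 (56.1%) against 47.5%. The other 25 had no measured probe set. These were the netrins Ntn1 and Ntn4, the receptors Epha3, Epha5, Epha6, Epha7, Epha8, Ephb1, Ephb6, Robo3, Robo4, Unc5a, Unc5c and Unc5d, the ligands Efna2, Sema3d, Sema3e, Sema4c, Sema4g, Sema6c, Sema6d, Slit1 and Slit3, and Plxna4os1 and Unc5cl. Of their probe sets most lay below the floor, but 1 each of Robo3, Slit1 and Sema6c had a median of 1 and was left out for being flat. Neither position means that a transcript was missing from the cells. All 9 plexins and all 3 ephrin-B genes were measured, but only 4 of 9 EphA genes and 1 of 4 Unc5 genes. The measured members rested on 55 probe sets, and 31 of them on a single one. For 4 members, Plxna2, Sema3g, Sema4b and Sema5a, no measured probe set had a median of 1, so they passed only through a clone that was high.

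The clones differed most in 2 semaphorins, Sema3c and Sema7a. Sema3c spanned 12.3-fold and was highest in clone 1D and lowest in clone 30. Sema7a spanned 6.26-fold and was highest in clone 30 and lowest in clone 42. Altogether the range reached 1 log2 unit in 8 of the 41 measured members (19.5%), against 13.0% of all measured genes, and 2 log2 units in 2 of them, against 1.52%. Over genes with a median of 1 on some probe set it was 8 of 37 against 13.6%. The 8 were Sema3c, Sema7a, Sema3b, Epha1, Efna3, Slit2, Sema4f and Plxnb3, of which 6 encode ligands and 2 receptors. The median range was 0.48 log2 units over the measured members and 0.41 over all measured genes. Without any filter, averaging all probe sets of each gene, only Sema3c and Sema7a reached 1 log2 unit, 2 of 66 members (3.03%) against 3.74% of all named genes; over the 41 measured members this is against 7.22%. The excess of wide ranges among the members therefore depends on which probe sets count.

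**Figure D1:**
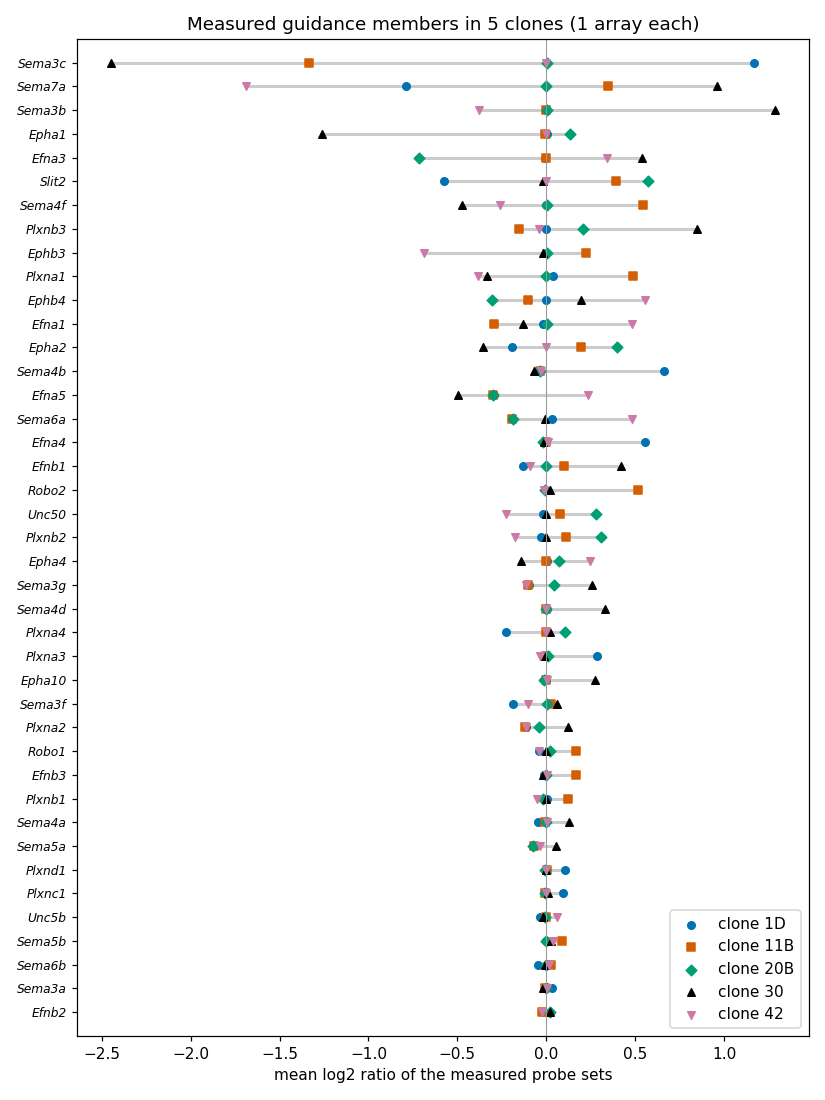
Mean log2 ratio of each measured member (rows, sorted by range) in the 5 clones (1 point per clone and array, no error bars because each clone has 1 array); grey bars join the lowest and highest clone. Sema3c and Sema7a at the top span 3.62 and 2.65 log2 units, and most members lie within 0.5 log2 units of 0.

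Sema3c encodes a secreted semaphorin that signals through neuropilins with plexin partners such as Plxnd1. On probe set 1420696_at its ratios were 2.245 in clone 1D, 0.397 in clone 11B, 1.003 in clone 20B, 0.183 in clone 30 and 1.000 in clone 42. Clone 1D was thus the highest, clones 20B and 42 were level with each other, and clones 11B and 30 were low. The gap from clone 1D to the next clone was 2.24-fold, and that from clone 30 to the next was -1.12 log2 units. Sema3c was therefore both above and below all other clones by at least 1 log2 unit, in different clones, and its range of 3.62 exceeded that of 99.8% of measured genes. Its other probe set, 1429348_at, stayed below the floor, with ratios of 0.566 to 0.738, the highest again in clone 1D and the lowest in clone 42. With both averaged, the range was 1.94 and clone 1D no longer lay 1 log2 unit above the next clone.

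Sema7a encodes the semaphorin that is anchored to the membrane by a lipid and binds Plxnc1 and integrins. On probe set 1459903_at its ratios were 0.579 in clone 1D, 1.270 in clone 11B, 1.000 in clone 20B, 1.942 in clone 30 and 0.310 in clone 42. The clones formed a graded series, from clone 42 through 1D, 20B and 11B to clone 30, and no gap to a neighbour reached 1 log2 unit. Clone 30 lay 0.61 log2 units above clone 11B, and clone 42 stood at -0.90 log2 units from clone 1D. The order was not that of Sema3c: clone 30 was lowest for Sema3c and highest for Sema7a. The second probe set, 1422040_at, was flat at 0.667 to 0.681, and with both averaged the range was 1.33.

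Sema3b, a secreted semaphorin studied as a tumour suppressor, was high in clone 30. On probe set 1448415_a_at its ratios were 1.000 in clone 1D, 0.998 in clone 11B, 1.003 in clone 20B, 2.442 in clone 30 and 0.769 in clone 42. Clone 30 lay 2.43-fold above the next clone. The ratios of clones 1D, 11B and 20B are found, digit for digit, on 1371 further probe sets; such a shared level leaves the size of the gap uncertain. The other 2 probe sets did not show the difference: 1431795_a_at was flat at 0.998 to 1.004, and 1416644_a_at lay below the floor with its lowest ratio, 0.564, in clone 11B. With all averaged the range was 0.57.

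Among the other class 3 genes, Sema3g was highest in clone 30 with a ratio of 1.193, but clones 1D, 11B and 42 were tied between 0.925 and 0.934. Sema3f had 3 measured probe sets with ranges of 0.05, 0.09 and 0.79, and only 1425840_a_at separated the clones, from 0.671 in clone 1D to 1.161 in clone 30. Sema3a, the classical repellent of axons, had a range of 0.05 on 1420416_at, where 3 clones were tied. On 1449865_at of Sema3a, below the floor, clone 1D was highest at 0.871, against 0.604 to 0.739 in the rest.

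In class 4, whose members are transmembrane proteins, Sema4f had the widest range at 1.02 log2 units. Its ratios on 1439768_x_at were 1.000 in clone 1D, 1.459 in clone 11B, 1.003 in clone 20B, 0.721 in clone 30 and 0.834 in clone 42. Clone 11B was the highest and clone 30 the lowest. The suffix of this probe set marks probes that can bind other transcripts, and its partner 1419328_at was flat below the floor. Sema4b was highest in clone 1D on 1427586_at, with a ratio of 1.582 against 0.953 to 0.978 in the rest, where 3 clones were tied. That probe set passed the filter only through clone 1D, its other clones being below the floor. On 1455678_at of Sema4b, below the floor in every clone, clone 30 was highest at 0.88, against 0.775 to 0.783 in the rest. Sema4d, the ligand of Plxnb1, was at 1.258 in clone 30 and between 0.999 and 1.001 elsewhere, with the other 4 clones tied. Sema4a was also highest in clone 30, over a range of 0.18.

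No class 5 or class 6 semaphorin reached a range of 1 log2 unit. Sema6a, a transmembrane ligand of Plxna2 and Plxna4, was highest in clone 42. Its ratio there was 1.837 on 1425903_at, against 0.773 in clone 20B, but 1.065 on 1421414_a_at, where clone 11B was lowest at 0.783. The 2 probe sets averaged to a range of 0.67. Sema6b, Sema5a and Sema5b had ranges of 0.07, 0.13 and 0.09 log2 units.

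**Figure D2:**
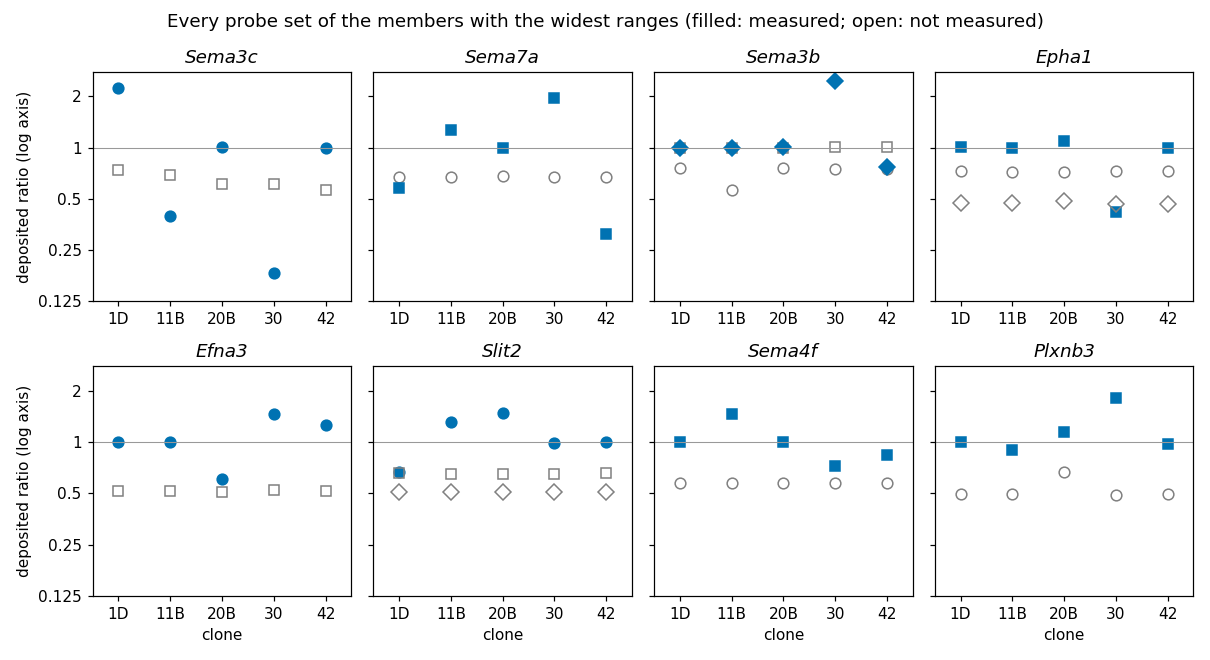
Deposited ratio of every probe set (log axis, base 2) in the 5 clones for the 8 members with a range of at least 1 log2 unit; filled symbols are measured probe sets, open grey symbols those that were not, and symbol shapes separate probe sets of a gene. For each of these members 1 probe set carries the difference and the remaining ones are flat or below the floor.

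The measured ephrin-A genes, which encode lipid-anchored ligands, differed between clones. Efna1 and Efna5 were highest in clone 42, Efna3 in clone 30 and Efna4 in clone 1D. Efna3 had ratios of 0.994 in clone 1D, 1.000 in clone 11B, 0.608 in clone 20B, 1.451 in clone 30 and 1.267 in clone 42 on 1431170_at. Clone 20B was low, clones 30 and 42 were high, and the range was 1.25 log2 units. Probe set 1455344_at of the same gene was flat at 0.512 to 0.521.

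Efna1, the ephrin bound by Epha2, was highest in clone 42 on both of its probe sets. On 1448510_at the ratios were 1.000 in clone 1D, 0.668 in clone 11B, 1.003 in clone 20B, 0.842 in clone 30 and 1.552 in clone 42. On 1416895_at clone 42 had 1.258 and the other clones lay between 0.977 and 1.005, so the probe sets shared the high clone but not the low one. Averaged, clone 42 exceeded the median of the rest by 0.56 log2 units.

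Efna4 was instead highest in clone 1D, at 1.472 against 0.988 to 1.005, and Efna5 in clone 42. For Efna5 the ratio in clone 42 was 1.283 on 1421796_a_at, where the other clones lay between 0.653 and 0.665, and 1.077 on 1436866_at, where clone 30 was low at 0.772. Probe set 1421796_a_at passed the filter only through clone 42, its other clones being below the floor. In both Efna4 and Efna5 3 of the other clones were tied. Among ephrin-B genes, Efnb1 was highest in clone 30 on all 3 probe sets, at 1.221, 1.546 and 1.272, and averaged a range of 0.55. Efnb2 and Efnb3 varied by 0.05 and 0.19 log2 units.

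Slit2 encodes a secreted ligand of Robo1 and Robo2. Its ratios on 1424659_at were 0.670 in clone 1D, 1.313 in clone 11B, 1.489 in clone 20B, 0.986 in clone 30 and 1.000 in clone 42. Clones 11B and 20B were high and clone 1D low, over a range of 1.15 log2 units, with no clones tied. The other 2 probe sets of Slit2 were flat below the floor, at 0.507 to 0.510 and 0.649 to 0.656.

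Sema3c, Sema7a and Slit2 met 3 conditions together: a range of 1 log2 unit or more, a plain probe set without 3 tied clones, and a single start site in RefSeq. Their promoters, the 250 bases before the start in RefSeq's build GRCm38.p6, are shown so that the regulatory sequence can be set beside these values. The Sema3c promoter lies at chr5:17574566-17574815, that of Sema7a at chr9:57939862-57940111 and that of Slit2 at chr5:47982905-47983154, all on the plus strand. Capitals mark the GC box, searched as GGGCGG on both strands, which is a binding motif of Sp1-type factors.
Sema3c: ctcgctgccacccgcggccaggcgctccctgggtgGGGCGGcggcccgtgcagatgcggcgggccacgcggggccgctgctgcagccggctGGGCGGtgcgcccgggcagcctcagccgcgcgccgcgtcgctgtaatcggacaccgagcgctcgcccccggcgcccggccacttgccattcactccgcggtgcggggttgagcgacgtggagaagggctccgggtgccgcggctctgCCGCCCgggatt
Sema7a: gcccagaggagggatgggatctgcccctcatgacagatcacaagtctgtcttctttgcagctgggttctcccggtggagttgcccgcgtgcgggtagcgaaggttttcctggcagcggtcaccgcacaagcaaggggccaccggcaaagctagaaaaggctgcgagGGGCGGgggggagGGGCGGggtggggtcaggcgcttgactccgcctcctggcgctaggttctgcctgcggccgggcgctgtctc
Slit2: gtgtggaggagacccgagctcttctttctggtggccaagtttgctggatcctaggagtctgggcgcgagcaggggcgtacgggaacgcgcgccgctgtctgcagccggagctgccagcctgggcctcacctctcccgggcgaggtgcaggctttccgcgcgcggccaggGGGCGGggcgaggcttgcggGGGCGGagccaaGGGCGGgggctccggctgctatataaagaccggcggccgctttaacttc
All 3 are rich in G and C, at 78.4% for Sema3c, 66.4% for Sema7a and 69.6% for Slit2. They hold 39, 17 and 25 CpG dinucleotides and 3, 2 and 3 GC boxes. TATAAA was found in the Slit2 window only, and CCAAT in none of them. In RefSeq, among 21262 promoters of protein-coding genes, 42.6% held a GC box in this window, 11.6% TATAAA and 35.4% CCAAT. A match describes these letters and shows no binding.

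Of 18 measured receptors 2 reached a range of 1 log2 unit, with a median range of 0.36, against 6 of 22 measured ligands, with a median of 0.56; the difference was not tested. Plxnb3, a plexin that binds Sema5a, was the only plexin among them, at 1.00 log2 units. With quantile normalization it no longer reached that range. On 1440813_s_at its ratios were 1.000 in clone 1D, 0.900 in clone 11B, 1.152 in clone 20B, 1.801 in clone 30 and 0.973 in clone 42. Clone 30 was the high one. The suffix of this probe set marks probes shared between transcripts or open to cross-hybridization. On 1418750_at, below the floor, clone 20B was highest at 0.664 and the rest lay between 0.491 and 0.498.

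Plxna1, a partner of neuropilins in class 3 semaphorin signalling, came next among the plexins with a range of 0.87. Its ratios on 1428623_at were 1.028 in clone 1D, 1.400 in clone 11B, 1.000 in clone 20B, 0.794 in clone 30 and 0.767 in clone 42, with clone 11B high and clones 30 and 42 low. Plxnb2 was highest in clone 20B at 1.237 and lowest in clone 42 at 0.885. The plexins paired with the most variable ligands had narrow ranges: Plxnd1, through which Sema3c can act, spanned 0.11 log2 units, and Plxnc1, the receptor of Sema7a, spanned 0.10. In both, 4 clones were tied, so this closeness is not a measurement. Plxna2, Plxna3, Plxna4 and Plxnb1 ranged over 0.24, 0.32, 0.33 and 0.18.

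Of the Eph receptors, Epha1 was low in clone 30. On 1432399_a_at its ratios were 1.002 in clone 1D, 0.995 in clone 11B, 1.096 in clone 20B, 0.417 in clone 30 and 1.000 in clone 42. The gap from clone 30 to the next clone was -1.25 log2 units, so Epha1 and Sema3c were the members below all other clones, both in clone 30. The other clones had ratios near 1, and those of clones 1D, 11B and 42 recurred on 3 other probe sets. Probe sets 1422917_at and 1432400_at were below the floor in every clone.

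Epha2, a receptor of Efna1, had untied ratios of 0.876 in clone 1D, 1.145 in clone 11B, 1.319 in clone 20B, 0.780 in clone 30 and 1.000 in clone 42. Clone 20B was high and clone 30 low, over 0.76 log2 units. Epha4, which binds ephrins of both classes, had 4 measured probe sets. Clone 42 was highest on 3 of them, at 1.349, 1.412 and 1.037, but clone 20B was highest on 1439757_s_at at 1.267. Epha10 differed only through clone 30, at 1.208.

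Ephb3 and Ephb4 were the members with the widest ranges below 1 log2 unit among the Eph receptors, at 0.91 and 0.86. Ephb3 was low in clone 42, at 0.620 against 0.989 to 1.166 in the rest. Ephb4, the receptor of Efnb2, had ratios of 1.000 in clone 1D, 0.932 in clone 11B, 0.808 in clone 20B, 1.147 in clone 30 and 1.467 in clone 42. It was highest in clone 42, the clone in which Ephb3 was lowest.

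The Slit receptors Robo1 and Robo2 were both highest in clone 11B on their measured probe sets. Robo2 had a ratio of 1.428 there and 0.990 to 1.015 elsewhere, and Robo1 1.123 against 0.973 to 1.014. On 1445549_at and 1457407_at of Robo1, both below the floor, clone 1D was highest instead, at 0.603 and 0.861. For Robo2 the deviation of clone 11B from the median of the other clones was 0.52 log2 units, and clones 1D, 20B and 42 were tied. Unc5b, known from endothelial cells, was the only measured Unc5 receptor and ranged over 0.10. Unc50, matched by its letters alone, ranged over 0.51 and is not a guidance receptor.

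Clone 30 was most often extreme among the members with wide ranges. It was the highest or the lowest clone for 7 of the 8 members with a range of at least 1 log2 unit, all but Slit2, and for 56.8% of the 1229 genes with such a range. It was highest for Sema7a, Sema3b, Efna3 and Plxnb3 and lowest for Sema3c, Epha1 and Sema4f. Clones 1D, 11B and 42 were each extreme for 2 of the 8, against 34.0%, 41.1% and 42.4%, and clone 20B for 3, against 25.7%. Over all 41 measured members clone 30 was highest for 13 against 22.7% of all measured genes, clone 11B for 9 against 18.9%, clone 1D for 7 against 19.2%, and clones 20B and 42 for 6 each against 16.7% and 22.5%. The lowest clone was 42 for 11 members against 22.2%, 30 for 9 against 27.5%, 1D and 20B for 8 each against 15.3% and 17.4%, and 11B for 5 against 17.7%. Of the 13, Plxna2 and Sema5a passed the filter only through clone 30 and Sema3g only through clones 20B and 30. Over the 37 members with a median of 1 on some probe set, clone 30 was highest for 10 (27.0%), against 22.8% of such genes. These 10 still include Efnb2, which was highest there only through 1449549_at, a probe set that passed the filter only through clone 30. On 1419639_at of Efnb2, with a median of 1, clone 20B was highest at 1.058 and clone 30 was at 0.995. The median deviation of the members from the median of the other clones was between -0.01 and 0.01 log2 units in every clone. Without clone 30, 4 members kept a range of at least 1 log2 unit: Sema3c, Sema7a, Slit2 and Efna3.

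Only a few members stood apart from all 4 other clones by at least 1 log2 unit. Above were Sema3c in clone 1D and Sema3b in clone 30, 2 of 41 members against 1.59% of all measured genes (0.212% for clone 1D and 0.647% for clone 30). Below were Sema3c and Epha1 in clone 30, again 2, against 1.27% (0.583% for clone 30). With every probe set averaged no member was called in either direction, and 2 calls rest on tied clones, those of Sema3b and Epha1.

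Markers of other cell types also differed between the clones, and their part in these results was not tested. The markers cannot be summed to a level from ratios. Of 8 epicardial or mesothelial markers 4 were measured, and in clone 30 Krt8, Upk3b and Msln exceeded the median of the rest by 1.55, 1.19 and 0.82 log2 units, Krt18 stood at -0.02 and Wt1 was not measured. Upk3b passed the filter only through clone 30, its other clones being below the floor. Of 8 smooth muscle or pericyte markers 4 were measured; in clone 30 Tagln stood at 1.83, Des at 0.38, Acta2 at 0.21 and Myh11 at 0.01. Of 8 fibroblast markers 3 were measured, and in clone 42 Col1a1 stood at -2.17, Pdgfra at 0.99 and Postn at -0.02, so they did not go one way. Of the endothelial list 7 of 8 were not measured, among them Pecam1, Cdh5 and Kdr. Of the immune list 6 of 8 were not measured, Ptprc included. Of the cardiomyocyte list 5 of 8 were not measured, and in clone 42 Myh6 stood at 0.55, Tnnt2 at -0.05 and Actc1 at 0.01. Myh6 passed the filter only through clone 42, its other clones being below the floor. Sox10, Mbp and Tubb3, from the list of glial or neural markers, ranged over at most 0.21.

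Pairs of clones were compared member by member, in 10 pairs. In all, 27 of 410 combinations of member and pair (6.59%) were at least 1 log2 unit apart, against 3.35% over all measured genes. Sema3c accounted for 9 of them, every pair except clones 20B and 42, and Sema7a for 5, leaving 13 for the other 6 members. Clones 11B and 30 differed in the most members, 5, against 4.36% of all genes: Epha1, Sema3c and Sema4f were higher in clone 11B, and Plxnb3 and Sema3b in clone 30. Clones 30 and 42 differed in 4, with Sema3b and Sema7a higher in clone 30 and Epha1 and Sema3c in clone 42, against 4.08%. Clones 1D and 30, and clones 20B and 30, also differed in 4 each, against 4.88% and 4.11%, Epha1 and Sema3c being lower and Sema3b higher in clone 30 in both pairs. Clones 1D and 20B, the pair with the fewest differences over all genes (1.25%), differed in Sema3c, higher in 1D, and Slit2, higher in 20B. Clones 1D and 42, and clones 11B and 20B, differed in Sema3c alone, against 2.56% and 1.70%. The remaining pairs differed in 2 members each: Sema3c and Sema7a for clones 1D and 11B (3.29% of all genes) and for clones 11B and 42 (4.28%), Sema7a and Efna3 for clones 20B and 42 (283 of the 9435 genes, 3.0%).

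**Figure D3:**
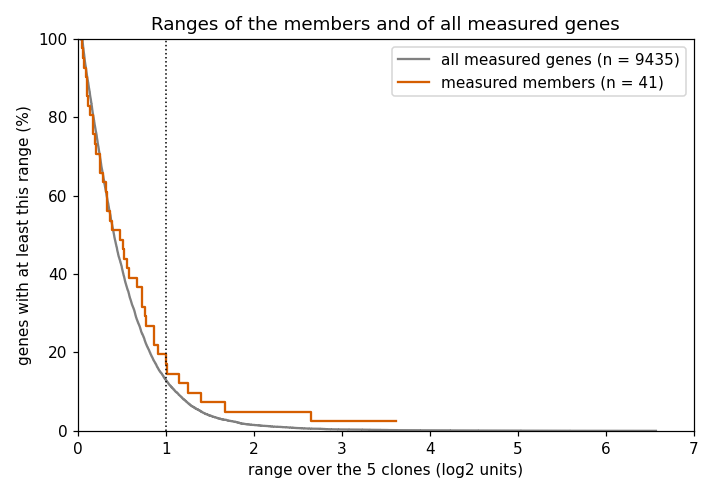
Share of genes (vertical axis, %) whose range over the 5 clones is at least the value on the horizontal axis (log2 units), for the 41 measured members and all 9435 measured genes; the dotted line marks 1 log2 unit. The curves run close together at small ranges and at 1 log2 unit the members are at 19.5% and all genes at 13.0%.

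The other genes of these pathways were taken from a list of 99 co-receptors, further cues and cytoplasmic signalling genes. Of these 74 were measured, and 13 (17.6%) reached a range of 1 log2 unit, against 13.0% of all measured genes. The neuropilins, which most class 3 semaphorins need for binding, had different ranges. Nrp1 ranged over 0.07 log2 units, with 4 clones tied on 1448944_at, where closeness is not a measurement. Nrp2 was high in clones 11B and 20B, with ratios of 1.000 in clone 1D, 2.094 in clone 11B, 1.368 in clone 20B, 0.772 in clone 30 and 0.935 in clone 42 on 1435349_at, and 1.376 and 1.392 in clones 11B and 20B on 1426528_at. Its range over 3 measured probe sets was 0.80, and of these 1456778_at passed the filter only through clone 11B. On the mean of its probe sets Nrp2, like Sema3c, was lowest in clone 30, at -0.29 against -0.24 log2 units in clone 42. On 1426528_at clone 42 was the lowest, at 0.789 against 0.876 in clone 30. In clone 11B, by contrast, Nrp2 was highest on the mean and Sema3c low.

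Of the netrin receptors, Dcc ranged over 0.13 log2 units with 4 clones tied. Neo1, which encodes neogenin, was highest in clone 30 on both of its measured probe sets, at 1.547 and 1.381, with a range of 0.90. L1cam, an adhesion molecule that associates with neuropilins, was high in clone 20B, at 2.571 on 1450435_at. Its other probe set, 1421958_at, was at 1.131 in clone 20B but passed the filter only through that clone. With both averaged, clone 20B exceeded the median of the rest by 1.03 log2 units.

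Among further cues, Cxcl12 had a range of 2.07, with clone 11B highest on both measured probe sets, at 1.889 and 2.780. Its lowest clone, 30, was at 0.307 on 1448823_at and, tied with clones 1D and 20B, at 0.974 on 1417574_at. Clone 30, lowest for Cxcl12, was also lowest for Sema3c and, on the mean of its probe sets, for Nrp2. The same clone was lowest for 27.5% of all measured genes. Rtn4, which encodes the growth inhibitor Nogo, was lowest in clone 30 on 2 of 3 measured probe sets, at 0.252 and 0.546, but the highest clone was 1D on the first (2.457) and 11B on the second (2.159). Flrt2, a ligand of Unc5 receptors, was high in clone 42 alone, at 1.622, with the other 4 clones tied below the floor and clone 11B at 0.597.

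Of 53 measured cytoplasmic genes 9 reached 1 log2 unit. The widest was Srgap3, a GTPase-activating protein that acts downstream of Slit and Robo. On 1424588_at its ratios were 0.339 in clone 1D, 1.783 in clone 11B, 1.000 in clone 20B, 4.395 in clone 30 and 0.403 in clone 42. Clones 30 and 11B were high and clones 1D and 42 low, as for Sema7a. On 1425741_at clone 30 was at 1.320, but that probe set passed the filter only through clone 30, its other clones being below the floor. Srgap2, a relative of Srgap3, behaved otherwise, highest in clone 11B at 2.393 and 1.322 and low in clone 30 at 0.614 and 0.541.

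Clone 1D was high for Rock1, a kinase that acts on the cytoskeleton, on all 4 of its measured probe sets, at 1.330 to 3.473. Rasa1, a GTPase-activating protein for Ras that binds Eph receptors, was highest in clone 1D and lowest in clone 11B on all 3 probe sets, from 2.023 to 0.464 on 1426478_at. Farp1, an exchange factor linked to class A plexins, and Rras, a small GTPase that plexins switch off, were high in clone 11B at 2.037 and 2.138. Rgs3, which binds ephrin-B, was high in clones 1D and 20B at 2.725 and 2.903. Sipa1l1 was highest in clone 30 at 1.962, and Dpysl3, of the family that mediates collapse of growth cones, was at 1.217 and 1.287 in clones 1D and 30 and at 0.684 and 0.633 in clones 11B and 20B. Farp1, Rgs3, Sipa1l1 and Dpysl3 each rested on 1 measured probe set. With every probe set averaged, their ranges were 0.87, 0.40, 0.25 and 0.35 log2 units.

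**Figure D4:**
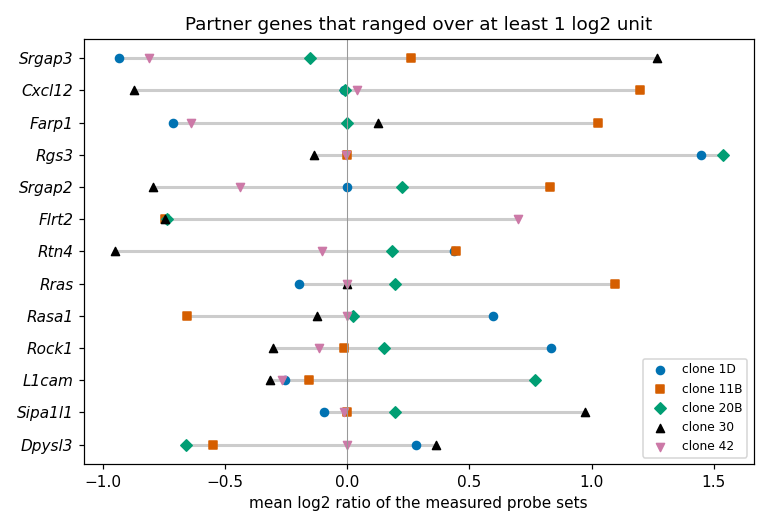
Mean log2 ratio of the measured probe sets (horizontal axis) for the 13 partner genes with a range of at least 1 log2 unit, 1 point per clone and array, with grey bars from the lowest to the highest clone. Srgap3 spans 2.20 log2 units from clone 1D to clone 30, and Cxcl12 spans 2.07 from clone 30 to clone 11B.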

How the data were processed

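The submitters' processing notes list RMA and GCRMA, methods that summarise probe signals, and give neither a version nor the use made of each. Deposited by the authors is one linear ratio per probe set and array; the unit is read from the values and is stated by no label. The median of the 5 arrays was exactly 1 for 42.0% of the probe sets and below 1 for the other 58.0%. Genes were named from the platform annotation supplied with the data (34958 probe sets with 1 symbol, 932 with several, 9211 with none; 64 controls left out), and all 66 member gene IDs matched RefSeq, assembly GRCm38.p6. Replicates did not exist, so ranges and deviations were described with fixed sizes of 1 and 2 log2 units and no test. Clones within 0.02 log2 units of each other were called tied. Genes were named by rule: members with a range of at least 1 log2 unit, the next 2, the extreme members of each clone and family, and partners with such a range plus Nrp1, Nrp2, Dcc, Neo1 and Cxcl12; other members are given to account for each one. The members and lists were chosen with earlier results of these data known. Calculations used Python 3.11.15, pandas 2.3.3 and numpy 2.4.6 and were tested on simulated data. In all, 17 other settings were tried.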

Additional observations from a re-analysis of the deposited data

How the results depend on the processing

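No paired analysis was possible because each clone is a single sample. The 8 members with a range of at least 1 log2 unit became 2 (Sema3c and Sema7a) when all probe sets were averaged, 5 (Sema3c, Sema7a, Efna3 and Slit2, with Sema6a added) without probe sets with the suffixes a, s or x (which mark probe sets shared between transcripts or open to cross-hybridization), and 4 without clone 30. The 2 members above all other clones became 0 with every probe set averaged, and 1 without those suffixes, with no minimum range, without clone 1D, without clone 30, and without probe sets on which 3 or more clones are tied. The 2 members below all other clones became 0 with every probe set averaged, and 1 without those suffixes, with quantile normalization, without clone 30, and without tied probe sets. The 27 combinations of member and pair became 6 with every probe set averaged, 17 without clone 11B and 10 without clone 30, where fewer pairs remain. The 13 partners became 5 with every probe set averaged and 21 when the probe set with the greatest mean ratio stood for its gene. Averaging every probe set adds flat ones by construction; the cause of the other changes was not tested. The median range of the members moved by less than 0.30 log2 units in all 17 settings. Of 320 values of the 21 named deviations under these settings, 283 moved by less than 0.30 and 37 by more. No deviation of at least 1 log2 unit changed sign, but that of Sema3c in clone 42 went from 0.66 to -0.0043 without clone 11B and likewise without clone 30. The settings that leave out clone 1D, 20B or 42, the suffixes s or x alone, the 3 members matched by letters, or tied probe sets were chosen after seeing the data. Signal over background is unknown for ratios, so a low level near the floor could not be seen.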

Other observations

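Some members lie next to each other in the genome. Efna1, Efna3 and Efna4 follow one another on chromosome 3 with 0 protein-coding genes between them in the RefSeq order, and each was highest in another clone: Efna1 in clone 42, Efna3 in clone 30 and Efna4 in clone 1D. In clone 1D the deviation from the median of the rest was 0.56 log2 units for Efna4, 0.05 for Efna1 and -0.18 for Efna3. On chromosome 16, Robo1 and Robo2 are also adjacent. On their measured probe sets both were highest in clone 11B, which led the next clone by 0.15 and 0.49 log2 units. Clone 11B was highest for 18.9% of all measured genes, and on the probe sets of Robo1 below the floor clone 1D was highest. Sema3b and Sema3f, with 3 genes between them on chromosome 9, were both highest in clone 30 on the mean of their measured probe sets, with leads over the next clone of 1.28 and 0.04. For Sema3f clone 30 was highest on 1 of 3 probe sets only, and lowest, at 0.986, on 1420508_at.

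The RefSeq table held 70 promoters of 54 members, leaving aside the 3 matched by letters. Of these promoters 50 (71.4%) held a GC box in the 250 bases before the start, against 42.6% of 21262 promoters of protein-coding genes. TATAAA was found in 2 of them (2.86%), against 11.6%, and CCAAT in 19 (27.1%), against 35.4%. The median content of G and C was 64.2% for the members and 55.6% for promoters of protein-coding genes. It was 64.2% for measured members and 63.6% for those not measured.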
